A study of Homo sapiens with 16 samples.

Results

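The effect of venetoclax on gene expression was examined in KG-1 cells with a FOXM1 knockdown (FOXM1-KD). KG-1 is an established human acute myeloid leukemia (AML) line of myeloblast-like suspension cells. The FOXM1-KD cells carried lentivirus encoding an shRNA against FOXM1, and the control cells carried a non-target shRNA, both selected with 4 μg/mL puromycin. The groups compared were FOXM1-KD cells given 100 nM venetoclax for 48 h and FOXM1-KD cells given 0.3% DMSO, the solvent, for 48 h. Each group had 2 libraries, described in the study as biological replicates, numbered 1 and 2 here; the DMSO libraries carry no number in the labels and are numbered in their listed order. The transduced cells were a selected population, and the labels name no clones. RNA was collected right after treatment, so only RNA present in the harvested cells was measured. The members of this comparison are the genes with an average of 10 or more counts over its 4 libraries: 13631 of the 43836 genes counted in the series, 11614 of them protein-coding. At the boundary, 52 genes averaged 10 counts and were kept, and 49 genes averaged 9.75 counts and were not.

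Venetoclax is a small molecule that occupies the BH3-binding groove of BCL2, an anti-apoptotic protein of the mitochondrial outer membrane. BH3-only proteins such as BIM and PUMA bind and neutralize BCL2, BCL-XL, MCL1 and BFL1, and the effectors BAX and BAK1 permeabilize the membrane once they are free to act. FOXM1 is a transcription factor of the cell cycle, best known for driving genes of mitosis. AML blasts resemble myeloid precursors, which fill their primary granules with proteases and peroxidase as they become promyelocytes.

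The libraries held 18386302 and 19733745 counts with DMSO and 15231704 and 17372713 counts with venetoclax, and mitochondrial transcripts took from 1.33% to 2.37% of them. FOXM1 (chr12:2857680-2877174 in GRCh38, minus strand), the targeted gene, had 923 and 1551 counts in the FOXM1-KD DMSO libraries against 2554 and 2515 in control DMSO libraries. After venetoclax the FOXM1-KD libraries held 740 and 955 FOXM1 counts, and the change was not called (log2 fold change -0.26 ± 0.32 SE, adjusted p = 0.888). Without FOXM1-KD DMSO library 2 the FOXM1 difference took the other sign, at 0.15. The marker of immature blasts CD34 had 0 and 2 counts in the FOXM1-KD DMSO libraries and 1 and 2 after venetoclax, against 25160 and 26713 in control DMSO cells. KIT, a receptor of blasts, had 1 to 7 counts in these 4 FOXM1-KD libraries against 313 and 346 in control DMSO cells. MPO, the peroxidase of primary granules, had 90669 to 155753 counts in the FOXM1-KD libraries against 35 and 48 in control DMSO cells. The FOXM1-KD and control cells therefore differed in their defining myeloid genes before any drug, and FOXM1 loss cannot be told apart from these other differences wherever the cells are compared. Whether the FOXM1-KD libraries share the parental line of the control libraries, as their labels say, was not tested. Of 5 T cell, 5 fibroblast, 5 B cell and 6 erythroid markers, 0, 0, 1 and 1 were members.

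Venetoclax changed 464 of the 13631 members (3.4%) by 2-fold or more at an adjusted p below 0.1, with 329 higher (2.41%) and 135 lower (0.99%). At any fold the same adjusted p called 473 (3.47%), with 337 higher (2.47%) and 136 lower (0.998%). The adjusted p-values below come from edgeR's quasi-likelihood test with Benjamini-Hochberg adjustment unless another tool is named. Expression is given as CPM, with library sizes adjusted by TMM, for DMSO 1 and 2 and then for venetoclax 1 and 2. The 2 CPM values of one group lay entirely above those of the other for 4802 members (35.2%), and for 416 of the called genes (3.05%). Of these 416, 387 (2.84% of members) were also called with robust empirical Bayes. The other 48 called genes overlapped between the groups. Called with the same sign by 3 further fits (only members fitted, robust empirical Bayes, and DESeq2) and not overlapping were 286 genes (2.1%), of which 203 were higher (1.49%) and 83 lower (0.609%), and these are named below as called in all 4 fits. Venetoclax library 1 was farther from the DMSO libraries than library 2 for 82.8% of the 290 non-overlapping higher genes and 76.2% of the 126 lower genes. Pearson's r across the 13631 members was 0.957 between venetoclax 1 and DMSO 2 and 0.98 between venetoclax 2 and DMSO 2, against 0.972 between the venetoclax libraries and 0.979 between the DMSO libraries, so venetoclax 2 was nearer to DMSO 2 than to its own replicate. Leaving out either venetoclax library left 0 called members in edgeR, with 395 members at an unadjusted p under 0.05 without library 1 and 1521 without library 2. Leaving out either DMSO library left 224 and 211 called members. A single gene tested alone by exact permutation of 2 against 2 libraries could not reach a two-sided p below 0.333. In these bulk samples, fewer cells of a type and less RNA per cell cannot be told apart.

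**Figure D1:**
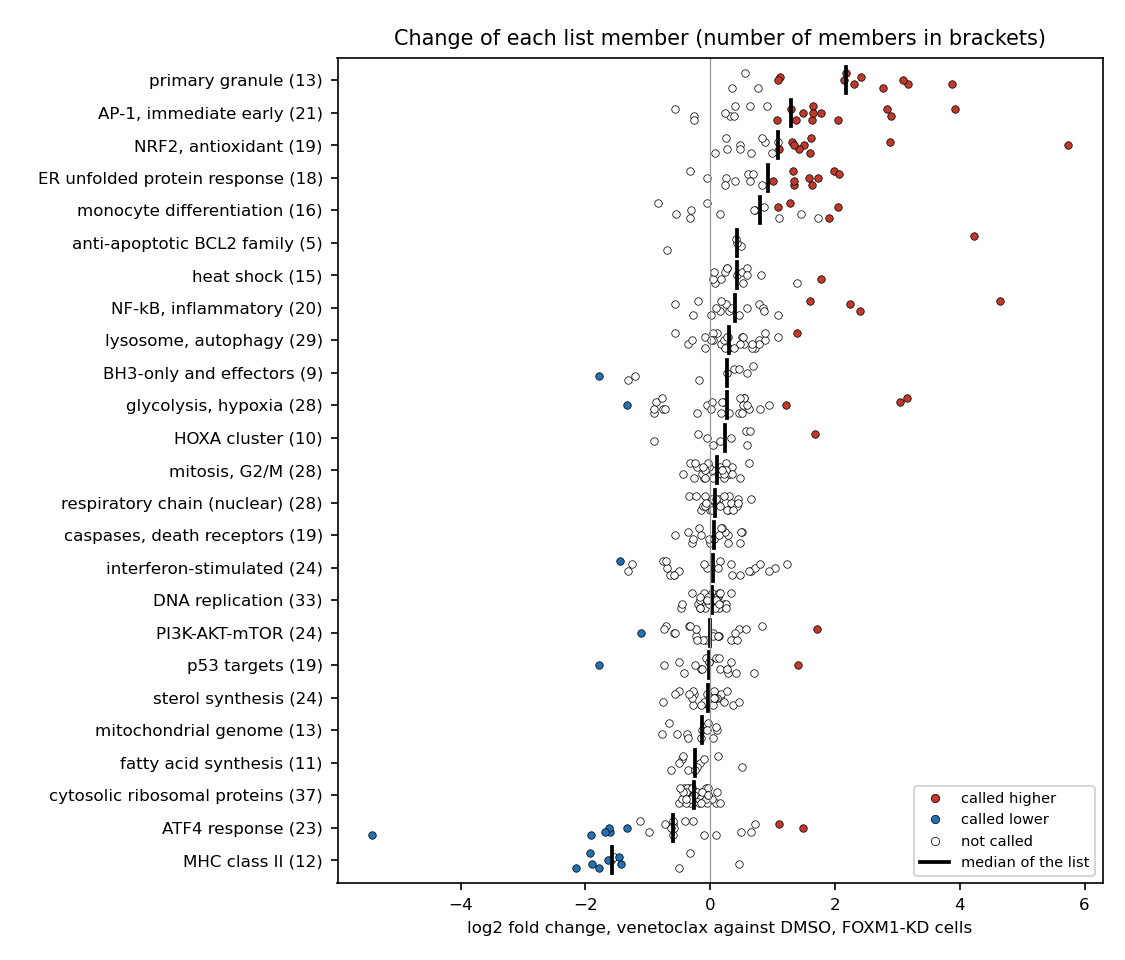
Log2 fold change (venetoclax against DMSO, FOXM1-KD cells) of every member of 25 gene lists, with 1 point per gene, filled where the gene was called, and a bar at the median of each list. Among the lists drawn, primary granule genes have the highest median, 2.17, and MHC class II genes, a list chosen after its values were seen, the lowest, -1.57. The cell type marker, eosinophil granule, secondary granule and metallothionein lists are not drawn. The eosinophil and secondary granule medians over 4 and 2 members were higher, at 3.61 and 4.35. In these lists the eosinophil gene EPX and the secondary granule gene TCN1 were members only through their venetoclax counts.

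Among protein-coding genes with at least 10 counts in each of the 4 libraries, CR1, FCAR, EGR1, ANXA1 and RNASE3 rose most. Genes with fewer counts had larger fitted changes, such as HMOX1 at 5.73 and CCL2 at 4.64 on the log2 scale. Both were members only through their venetoclax counts, which fixed their direction. CR1, the complement receptor for C3b, had 1.53 and 1.55 CPM with DMSO and 36.7 and 15.5 CPM with venetoclax (log2 fold change 4.08 ± 0.43 SE, adjusted p = 9.8e-18). FCAR, the receptor for the Fc part of IgA, went from 6.42 and 2.38 CPM to 107 and 38.2 CPM (4.04 ± 0.37, adjusted p = 3.8e-23). ANXA1, an anti-inflammatory phospholipid-binding protein, went from 5.61 and 7.03 CPM to 145 and 43.9 CPM (3.90 ± 0.36, adjusted p = 9.8e-23). All 3 genes were higher in both venetoclax libraries by a wide margin, with the larger value in venetoclax 1. The transcription factor EGR1 had 3.67 and 1.19 CPM before and 39.4 and 34.4 CPM after (3.92 ± 0.40), the kinase PLK2 had 1.48 and 1.40 before and 14.4 and 17.3 after (3.46 ± 0.44), and THBS1, a secreted matrix glycoprotein, had 2.09 and 2.43 before and 20.9 and 22.9 after (3.27 ± 0.42). For these 3 the venetoclax libraries lay close together. The other genes among the 15 with the highest change under this count limit were RNASE3, SYNPO2, SEPTIN5, NCF1, CDHR1, EGLN3, DEFA4, SCUBE1 and ADM, with log2 fold changes from 3.04 to 3.88. NCF1, a subunit of the NADPH oxidase, has near-identical copies, so its counts are uncertain. All 15 were called in all 4 fits.

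Among the 15 genes that fell most under the same limit, ASS1, the argininosuccinate synthase of arginine synthesis, went from 85.5 and 44.5 CPM to 2.47 and 11.3 CPM (log2 fold change -3.22 ± 0.36 SE, adjusted p = 5.9e-16). FLT3, the growth factor receptor of myeloid progenitors that is often mutated in AML, went from 80.2 and 37.1 CPM to 11.3 and 18.3 CPM (-1.98 ± 0.34, adjusted p = 1.4e-06). P2RX7, an ATP-gated ion channel, had 70.4 and 21.7 CPM before and 8.76 and 13.5 after (-2.04 ± 0.35). SLC9A7, an organellar sodium and proton exchanger, had 27.7 and 30.8 CPM before and 3.01 and 9.69 after (-2.20 ± 0.37). CBS, which makes cystathionine from homocysteine and serine, had 12.2 and 3.82 CPM before and 2.07 and 1.95 after (-1.99 ± 0.45). For ASS1, FLT3, P2RX7 and CBS the DMSO libraries also lay far apart, with library 1 the higher, and both still lay above both venetoclax libraries. The other members of this group were MFAP4, PLD4, PLEKHA6, ULBP1, CLSTN2, OSCAR, YPEL1, PLA2G2C, HLA-DPB1 and TCP11L2, with log2 fold changes from -3.16 to -2.10. PLD4 was not called by DESeq2 (adjusted p = 0.537). TCP11L2 overlapped between the groups, and without DMSO library 1 its difference took the other sign, at 0.13.

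**Figure D2:**
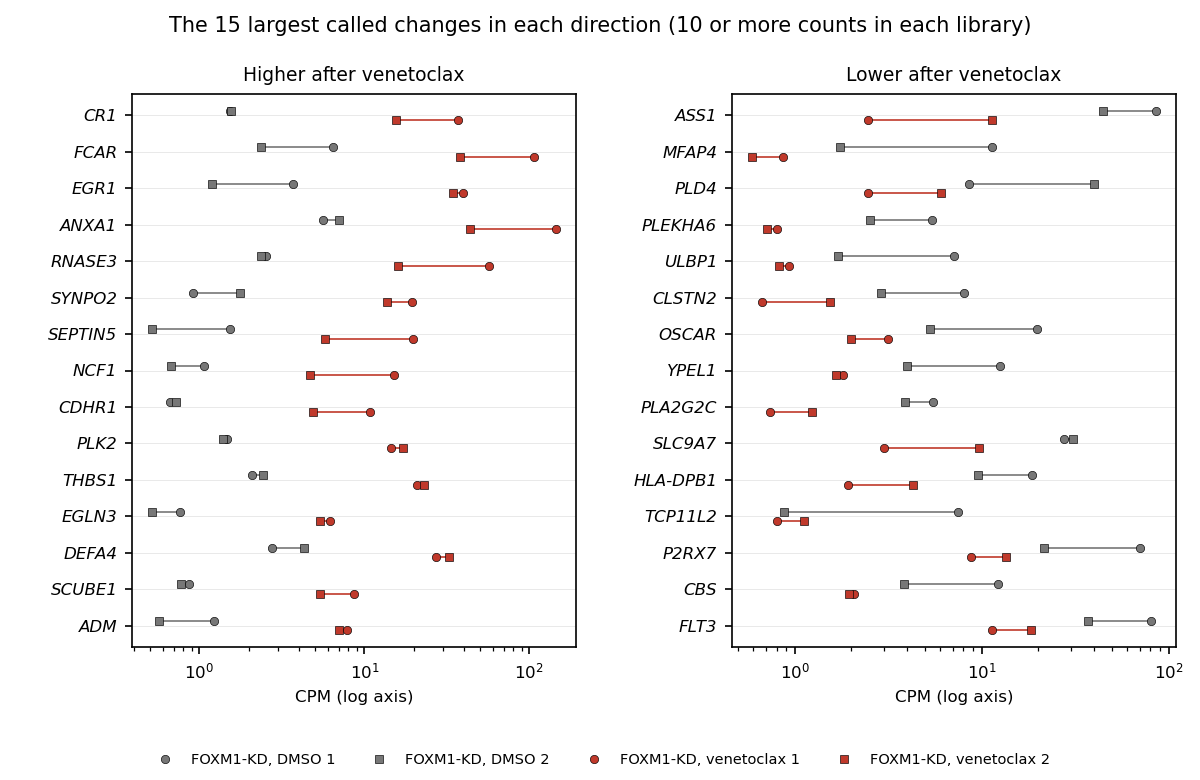
CPM by library (log axis) of the 15 protein-coding genes with the largest called increase and the 15 with the largest called decrease in FOXM1-KD cells, among those with at least 10 counts in each of the 4 libraries. Circles are library 1, squares library 2, and a line joins the 2 libraries of a group; only TCP11L2 overlaps, and the venetoclax value of library 1 is the higher one for CR1, FCAR and ANXA1.

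Primary granule genes were higher as a group. All 13 listed genes were members, 10 were called higher (8 of them in all 4 fits), 0 were lower, and the median log2 fold change was 2.17, against -0.01 over all members. ELANE, neutrophil elastase, had 284 and 191 CPM with DMSO and 1588 and 763 CPM with venetoclax (log2 fold change 2.31 ± 0.29 SE, adjusted p = 5.0e-12). The serine proteases PRTN3 and CTSG behaved alike: PRTN3 had 324 and 346 CPM before and 1653 and 1312 after (2.14 ± 0.29), and CTSG had 427 and 235 before and 1622 and 1356 after (2.17 ± 0.29). SRGN, the proteoglycan on which granule proteins are packed, had 615 and 477 CPM before and 3825 and 1984 after (2.41 ± 0.28). The groups were well apart for these 4 genes. DEFA4, a defensin, went from 2.75 and 4.29 CPM to 27.2 and 32.6 CPM (3.08 ± 0.39), and the bactericidal protein BPI from 11 and 1 counts to 73 and 13 counts (3.16 ± 0.63). BPI passed the count minimum only through the venetoclax libraries, so its direction was fixed by that rule. AZU1 and LYZ were called but overlapped between the groups, and DESeq2 did not call them. LYZ, lysozyme, had 528 and 1265 CPM with DMSO and 1118 and 2680 CPM with venetoclax, so the spread between libraries of a group was as large as the difference. MPO had 4816 and 4686 CPM before and 10414 and 5771 after, a log2 fold change of 0.77 ± 0.25 that stayed under the 2-fold limit (adjusted p = 0.086, and 0.267 when only members were fitted). CFD and PRSS57 were not called, with log2 fold changes of 0.36 and 0.56.

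Genes of eosinophil and secondary granules were set in lists after their values were seen. RNASE2 and RNASE3, ribonucleases of eosinophil granules that also stand in the primary granule list and are near copies of each other, had 34.0 and 25.0 CPM before and 276 and 124 after, and 2.55 and 2.38 CPM before and 57.0 and 15.9 after (log2 fold changes 2.76 ± 0.33 and 3.88 ± 0.40 SE). PRG2, the major basic protein of eosinophils, had 5 and 15 counts with DMSO and 141 and 19 counts with venetoclax (3.33 ± 0.55). EPX, the eosinophil peroxidase, had 13 and 5 counts with DMSO and 530 and 8 counts with venetoclax, so its call rested on library 1. The EPX groups overlapped, and the call was lost with robust empirical Bayes (adjusted p = 0.875). EPX also passed the count minimum only through venetoclax library 1, so its direction was fixed by that rule. CEBPE, a transcription factor of late granulocyte differentiation, was chosen after its values were seen. It had 31.9 and 12.9 CPM before and 281 and 55.0 after (2.90 ± 0.34), with the larger value in library 1. The CEBPE groups did not overlap, but its call was also lost with robust empirical Bayes (adjusted p = 0.749). Of 11 secondary granule genes 2 were members, TCN1 and CYBB, and both were called higher. TCN1, a vitamin B12-binding protein, had 0 counts in both DMSO libraries and 33 and 11 with venetoclax. TCN1 passed the count minimum only through the venetoclax libraries, so its direction was fixed by that rule. CYBB, the oxidase subunit gp91phox, had 63.3 and 91.8 CPM before and 201 and 119 after (1.05 ± 0.31). The other 9, among them LTF and MMP8, were below the count minimum.

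In the BCL2 family, the drug target itself was lower in both treated libraries without passing the test. BCL2 (chr18:63123346-63320128, minus strand) had 391 and 340 CPM with DMSO and 252 and 201 CPM with venetoclax (log2 fold change -0.69 ± 0.29 SE, adjusted p = 0.458). MCL1 had 197 and 213 CPM before and 262 and 283 after (0.41 ± 0.30), BCL2L1, which encodes BCL-XL, had 14.2 and 21.1 before and 28.4 and 21.2 after (0.49 ± 0.34), and BCL2L2 had 30.4 and 29.5 before and 47.5 and 33.3 after (0.43 ± 0.33), each with an adjusted p of 0.888. The groups did not overlap for any of these 4 genes, as for 35.2% of all members. BCL2A1, which encodes BFL1, was the 1 called gene of the 5 members: it had 9 and 0 counts with DMSO and 105 and 32 counts with venetoclax (4.23 ± 0.62, adjusted p = 2.3e-09). DESeq2 did not call BCL2A1 (adjusted p = 0.733). BCL2A1 passed the count minimum only through the venetoclax libraries, so its direction was fixed by that rule. BCL2L10 was below the count minimum.

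Of 9 BH3-only and effector genes that were members, 1 was called, and it was lower. BBC3, which encodes PUMA, had 9.38 and 4.39 CPM with DMSO and 1.81 and 2.19 CPM with venetoclax (log2 fold change -1.78 ± 0.46 SE, adjusted p = 0.0079), and was called in all 4 fits. BIK and BMF were also below their DMSO values in both treated libraries, with log2 fold changes of -1.33 ± 0.47 and -1.20 ± 0.41 and adjusted p of 0.185 and 0.133. Fitted together with the AraC libraries, BIK and BMF were called (adjusted p = 0.068 and 0.020). PMAIP1, which encodes NOXA, had 57.9 and 40.2 CPM before and 70.9 and 77.0 after (0.59 ± 0.32, adjusted p = 0.81), and BCL2L11, which encodes BIM, had 82.3 and 67.0 before and 59.6 and 71.9 after (-0.18 ± 0.32). BAX, BAK1, BAD and BID had log2 fold changes between 0.27 and 0.68, none called, and HRK and BOK were below the count minimum. The 19 caspase and death receptor genes were all members, and 0 were called by edgeR or DESeq2, with 0 at an unadjusted p under 0.05 and log2 fold changes from -0.57 to 0.52. Of 19 p53 target genes 2 were called: BBC3, and BTG2, an antiproliferative gene, which was higher (1.40 ± 0.39) but overlapped between the groups.

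**Figure D3:**
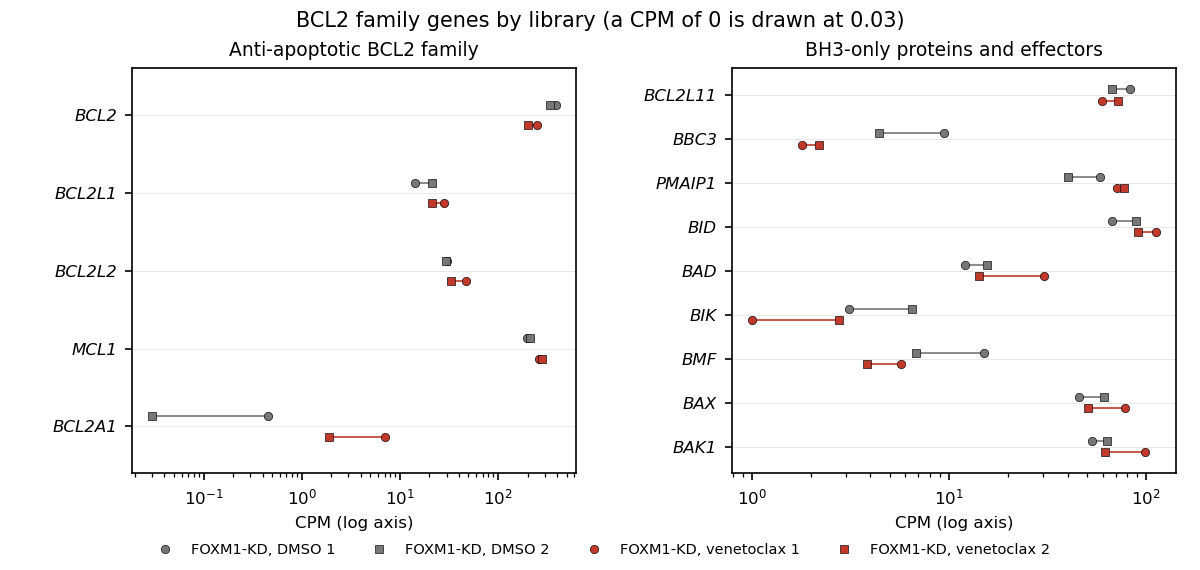
CPM by library (log axis) of the 5 anti-apoptotic and 9 BH3-only or effector genes that were members, with circles for library 1, squares for library 2 and a line joining the libraries of a group (a CPM of 0 is drawn at the left edge). BCL2 and BBC3 lie lower with venetoclax in both libraries, and BCL2A1, a member only through its venetoclax counts, higher. BCL2A1 and BBC3 were called.

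Serine and asparagine synthesis genes of the ATF4 response fell. ATF4 is the transcription factor made when the kinases of the integrated stress response phosphorylate eIF2α, and it turns on genes of amino acid synthesis and uptake. Of 23 members in this list 6 were called lower, all of them in all 4 fits, and 2 higher, with a median log2 fold change of -0.59. ASNS (chr7:97851677-97872542, minus strand), asparagine synthetase, had 190 and 84.0 CPM with DMSO and 23.3 and 49.4 CPM with venetoclax (-1.91 ± 0.33 SE, adjusted p = 1.7e-06). PHGDH and PSAT1, the first enzymes of serine synthesis, had 179 and 214 CPM before and 42.9 and 85.4 after (-1.62 ± 0.32), and 281 and 157 before and 50.3 and 94.1 after (-1.60 ± 0.31). ALDH1L2, a mitochondrial folate enzyme, had 89.9 and 37.2 CPM before and 16.1 and 23.3 after (-1.69 ± 0.33), and PCK2, the mitochondrial phosphoenolpyruvate carboxykinase, 88.9 and 47.7 before and 26.3 and 28.0 after (-1.33 ± 0.33). In these 5 genes both DMSO libraries lay above both venetoclax libraries. DMSO library 1 was well above library 2 for ASNS, PSAT1, ALDH1L2 and PCK2. With 1 library left out, the weakest log2 fold changes were -1.21 for ASNS and PHGDH, -1.12 for PSAT1, -0.92 for ALDH1L2 and -0.81 for PCK2. STC2, a secreted glycoprotein, had 310 and 17 counts with DMSO and 3 counts in each venetoclax library, and most of that difference rested on DMSO library 1. PSPH, SHMT2 and MTHFD2, the next enzymes of the serine and folate route, were lower in both treated libraries but not called, with log2 fold changes from -0.60 to -0.59. The mRNA of ATF4 itself had 522 and 422 CPM before and 463 and 422 after (-0.09 ± 0.29). The 2 genes called higher were ATF3, with 7.5 and 3.10 CPM before and 15.4 and 14.4 after (1.49 ± 0.39), and the cystine transporter SLC7A11, with 60.1 and 26.4 before and 102 and 84.0 after (1.10 ± 0.32), which DESeq2 did not call (adjusted p = 0.132). ATF3 also belongs to the early response list and SLC7A11 to the NRF2 list. DDIT3, which encodes CHOP, had 31.9 and 16.9 CPM before and 34.6 and 34.2 after and was not called.

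The promoters of the list were searched for the CARE element bound by ATF4 with C/EBP partners, TGATGNAA on either strand, in the 250 bases before each RefSeq start (GRCh38.p14). It was present in 3 of the 19 list members with a promoter entry (15.8%), against 870 of 27305 promoters (3.19%) and 137 of the 9833 promoters of members (1.39%). The 3 matches are shown because they stand before one gene that fell, one that rose and one that was not called. The sequence runs 5′ to 3′ on the gene's strand with the match in capitals.
ASNS, chr7:97872458-97872487, minus strand: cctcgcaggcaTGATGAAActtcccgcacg
ATF3, chr1:212565205-212565234, plus strand: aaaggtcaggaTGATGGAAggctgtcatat
CHAC1, chr15:40953251-40953280, plus strand: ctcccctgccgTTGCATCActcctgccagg
The match starts 68 bases before the start of ASNS, 191 before that of ATF3 and 209 before that of CHAC1, where it reads on the other strand. CHAC1, a glutathione-degrading enzyme, had 7.34 and 2.02 CPM before and 2.07 and 2.19 after (log2 fold change -1.13 ± 0.47 SE, adjusted p = 0.4). The same letters stood before genes whose values went in different directions, and a match is a description of the sequence, not of binding.

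MHC class II genes fell together with their master regulator. MHC class II molecules present peptides to T helper cells, and their genes are switched on by the coactivator CIITA, which docks on RFX and NF-Y proteins at the promoters. This list was chosen after its values were seen. Of 16 genes 12 were members, 8 were called lower (7 in all 4 fits) and 0 higher, with a median log2 fold change of -1.57. CIITA (chr16:10866222-10943021, plus strand) had 83.0 and 70.3 CPM with DMSO and 19.5 and 24.9 CPM with venetoclax (-1.79 ± 0.33 SE, adjusted p = 1.5e-05). HLA-DRA had 138 and 131 CPM before and 23.2 and 49.0 after (-1.90 ± 0.33, adjusted p = 2.1e-06), and CD74, the invariant chain, had 480 and 625 before and 144 and 255 after (-1.47 ± 0.30). The DMSO libraries agreed closely for CIITA and HLA-DRA and lay well above the treated ones. HLA-DPA1 had 35.9 and 32.6 CPM before and 5.82 and 12.1 after (-1.93 ± 0.36), HLA-DPB1 18.6 and 9.51 before and 1.94 and 4.32 after (-2.16 ± 0.42), and HLA-DRB1 20.8 and 25.4 before and 5.55 and 9.69 after (-1.59 ± 0.37). HLA-DMA and HLA-DMB, which load the peptides, had log2 fold changes of -1.43 ± 0.43 and -1.64 ± 0.49, and DESeq2 did not call HLA-DMB (adjusted p = 0.187). HLA-DRB5 had 39 and 51 counts before and 12 and 13 after and was not called (adjusted p = 0.212). The RFX subunits RFX5, RFXAP and RFXANK had log2 fold changes of -0.33, -0.50 and 0.45, none called. HLA genes are polymorphic and the DRB genes are close copies, so the split of reads among them is uncertain.

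The Y box of class II promoters, CTGATTGG on either strand, was found in the 250 bases before the start in 4 of the 10 list members with a promoter entry (40%), against 1088 of 27305 promoters (3.98%) and 521 of the 9833 promoters of members (5.3%). These are shown because 2 of the called genes, 1 uncalled copy and 1 uncalled regulator carry the same 8 letters. RFX5 carries them on the other strand.
HLA-DMA, chr6:32953161-32953190, minus strand: cctacgcttctCTGATTGGtttagacaaaa
HLA-DRB1, chr6:32589879-32589908, minus strand: gaactcagatgCTGATTGGttctccaacac
HLA-DRB5, chr6:32530362-32530391, minus strand: gaactcagatgCTGATTGGttctccaacac
RFX5, chr1:151347411-151347440, minus strand: tcccctattgaCCAATCAGattctgttacc
The 30 bases around the match in HLA-DRB1 and HLA-DRB5 are identical. The match lies 82, 49, 93 and 177 bases before the start of HLA-DMA, HLA-DRB1, HLA-DRB5 and RFX5. CIITA and HLA-DRA had no entry.

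**Figure D4:**
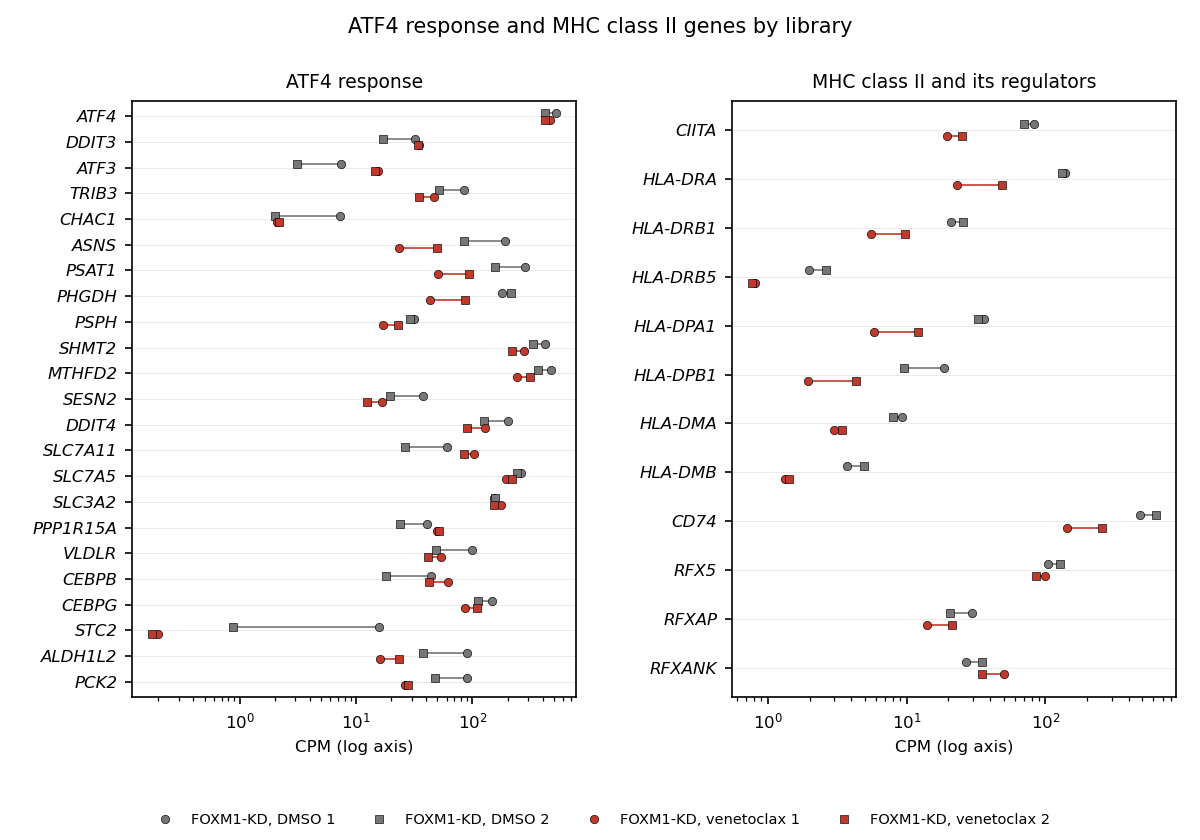
CPM by library (log axis) of the 23 ATF4 response genes and the 12 MHC class II genes that were members, with circles for library 1, squares for library 2 and a line joining the libraries of a group. ASNS, PSAT1, PHGDH, ALDH1L2, PCK2, CIITA, CD74 and the called HLA genes lie lower with venetoclax in both libraries, whereas ATF4 changed by -0.09 on the log2 scale and was not called.

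Many genes of the early response list, which holds AP-1, EGR and other early genes, were higher. Of 21 members 12 were called higher (11 in all 4 fits) and 0 lower, with a median log2 fold change of 1.30. FOS had 12.3 and 21.5 CPM with DMSO and 41.8 and 62.4 CPM with venetoclax (1.62 ± 0.34 SE, adjusted p = 0.00019), and FOSB had 4.33 and 2.12 before and 25.3 and 23.1 after (2.90 ± 0.40). FOSL1 went from 5.46 and 6.05 CPM to 18.7 and 20.5 CPM (1.77 ± 0.39) and JUNB from 72.2 and 60.4 CPM to 163 and 115 CPM (1.07 ± 0.32). KLF4, a transcription factor that also stands in the monocyte list, had 1.99 and 2.27 CPM before and 8.16 and 9.40 after (2.04 ± 0.44). The phosphatases DUSP1 and DUSP2, which switch off MAP kinases, had log2 fold changes of 1.64 ± 0.44 and 1.30 ± 0.34. KLF2, IER5, NR4A3, ATF3 and EGR1 completed the called genes. JUN and JUND were not called (0.64 ± 0.32 and 0.32 ± 0.31). The AP-1 gene FOSL2 went the other way, with 5176 and 3264 counts before and 2328 and 2340 after, and was not called. EGR2 and EGR3 averaged 9 and 5.75 counts and were below the count minimum, so EGR1 alone stood for that family.

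Of 20 inflammatory NF-κB genes 4 were called higher and 0 lower, with a median log2 fold change of 0.39. TNF had 10.1 and 36.5 CPM with DMSO and 61.0 and 80.8 CPM with venetoclax (1.60 ± 0.33 SE), and the monocyte chemokine CCL2 had 8 and 6 counts before and 230 and 49 counts after (4.64 ± 0.54), both called in all 4 fits. CXCL8, the neutrophil chemokine interleukin-8, had 33.5 and 8.01 CPM before and 142 and 78.3 after (2.40 ± 0.34) and CXCL3 10 and 2 counts before and 34 and 12 after (2.24 ± 0.69), and neither was called by DESeq2. CXCL3 was also lost with only the members fitted (adjusted p = 0.124) and with robust empirical Bayes (adjusted p = 0.103). CCL2 and CXCL3 passed the count minimum only through the venetoclax libraries, so their direction was fixed by that rule. Of 16 members of the monocyte differentiation list, 4 were called higher and 0 lower. MNDA, a nuclear antigen of myeloid differentiation, had 24.8 and 20.0 CPM before and 86.3 and 80.6 after (1.90 ± 0.33), and VCAN, a proteoglycan of monocytes, 47.5 and 45.6 before and 98.6 and 127 after (1.28 ± 0.32). The monocyte marker CD14 had 15 and 7 counts before and 45 and 13 after and was not called (1.72 ± 0.61, adjusted p = 0.174), and CSF1R had a log2 fold change of -0.05. The summed level of the 6 monocyte and macrophage markers was 54.4 to 56.9 CPM with DMSO and 111 to 133 CPM with venetoclax, with CD163 below the count minimum, and its part in these results was not tested. Of 8 blast markers that were members 2 were called higher, 1 lower (HLA-DRA, -1.90 on the log2 scale) and 5 were not called. CD38 rose from 1.38 and 1.24 CPM to 9.29 and 10.5 CPM (2.91 ± 0.46) and ANPEP, which encodes CD13, from 102 and 66.6 CPM to 221 and 157 CPM (1.17 ± 0.31).

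Chaperones of the endoplasmic reticulum (ER) were higher. These proteins fold secretory cargo such as granule proteins, and their genes form the ATF6 and XBP1 arms of the unfolded protein response. Of 18 members 9 were called higher, all of them in all 4 fits, and 0 lower, with a median log2 fold change of 0.92. HSPA5, the chaperone BiP, had 167 and 270 CPM with DMSO and 739 and 620 CPM with venetoclax (1.64 ± 0.30 SE, adjusted p = 7.0e-06). CRELD2 had 27.8 and 24.2 CPM before and 146 and 72.2 after (2.07 ± 0.33), SDF2L1 7.14 and 15.1 before and 52.1 and 36.0 after (1.99 ± 0.35), and HYOU1 159 and 240 before and 819 and 495 after (1.72 ± 0.30). The oxidoreductase PDIA4 had a log2 fold change of 1.58 ± 0.30, the calcium-binding chaperones CALR and HSP90B1 1.35 ± 0.26 and 1.34 ± 0.28, MANF 1.33 ± 0.32 and DNAJB11 1.01 ± 0.32. XBP1 mRNA (0.40 ± 0.31) and DNAJB9 (0.26 ± 0.36) were not called and overlapped between the groups.

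The NRF2 antioxidant list gave 9 called higher of 19 members (7 in all 4 fits) and 0 lower, with a median log2 fold change of 1.09. HMOX1, the heme-degrading oxygenase, had 2 and 4 counts with DMSO and 63 and 217 counts with venetoclax (5.73 ± 0.61 SE, adjusted p = 9.8e-18). HMOX1 passed the count minimum only through the venetoclax libraries, so its direction was fixed by that rule. GCLM, a subunit of the glutathione-making ligase, had 21.6 and 46.9 CPM before and 75.1 and 133 after (1.60 ± 0.33), and FTL, the ferritin light chain, 916 and 1707 before and 4249 and 3221 after (1.51 ± 0.27). PGD, an enzyme of the pentose phosphate route, had 186 and 235 CPM before and 671 and 453 after (1.41 ± 0.30). NQO1 had 24.7 and 87.2 CPM with DMSO and 104 and 173 CPM with venetoclax (1.30 ± 0.32), and DESeq2 did not call it (adjusted p = 0.948). OSGIN1 and ME1 were called in all 4 fits (2.87 ± 0.57 and 1.34 ± 0.36). In the metallothionein list, chosen after its values were seen, MT2A had 14.6 and 20.0 CPM before and 132 and 48.2 after (2.38 ± 0.34) and MT1X 1.89 and 3.26 before and 15.4 and 16.2 after (2.62 ± 0.42), while the other 5 members were not called; MT1 genes are close copies.

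Single genes were called in several other lists. Of 28 glycolysis and hypoxia genes 3 were higher: the prolyl hydroxylase EGLN3 (3.15 ± 0.52 SE), the vasodilator peptide ADM (3.04 ± 0.49) and the pyruvate kinase PKM, with 843 and 1343 CPM before and 3206 and 1876 after (1.22 ± 0.27). VEGFA was called lower there (-1.33 ± 0.33), but its groups overlapped, with 105 and 22.6 CPM before and 32.8 and 18.1 after, and without DMSO library 1 the difference took the other sign, at 0.17. HSPA1B was the 1 called heat shock gene of 15 (1.77 ± 0.33) and shares sequence with HSPA1A. The lysosomal protease CTSD was the 1 called gene of 29 lysosome and autophagy members (1.40 ± 0.33), and XAF1 the 1 called gene of 24 interferon-stimulated members, lower at -1.45 ± 0.39. These are 3.45% and 4.17% of the 2 lists, near the 3.4% called over all members, so they describe single genes and not the lists.

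The study's text deals with the PI3K-AKT-mTOR route, the HOXA cluster and mitotic FOXM1 targets. It also reported caspase-3 cleavage and a high share of apoptotic cells after a shorter venetoclax treatment of FOXM1-KD cells, but not of control cells. How far dying cells contributed to the libraries used here was not tested. Of 24 PI3K-AKT-mTOR genes, the adaptor IRS2 was called higher, with 79.2 and 57.5 CPM before and 308 and 140 after (1.71 ± 0.31 SE, adjusted p = 1.3e-05). AKT1 had a log2 fold change of 0.34 ± 0.30, MTOR 0.46 ± 0.30 and RICTOR -0.34 ± 0.32, each with an adjusted p of 0.888. Of 10 HOXA members HOXA11 was called, with 4.89 and 4.81 CPM before and 21.0 and 10.1 after (1.68 ± 0.40). HOXA10 had 20.7 and 25.3 CPM before and 32.1 and 25.9 after (0.33 ± 0.34), HOXA7 0.04 ± 0.42 and HOXA5 -0.20 ± 0.44 on the log2 scale, none called. Of the 28 genes of mitosis and G2/M 0 were called by edgeR or DESeq2 (1 at an unadjusted p under 0.05), and their median log2 fold change was 0.10. CDK1 had a log2 fold change of -0.32 ± 0.31, PLK1 0.35 ± 0.31, AURKB 0.23 ± 0.33, UBE2C 0.16 ± 0.32 and CENPF 0.34 ± 0.29, and CENPF ranged from 219 to 412 CPM between the venetoclax libraries.

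No member was called by edgeR or DESeq2 among 33 DNA replication, 24 sterol, 11 fatty acid synthesis, 28 nuclear respiratory chain, 13 mitochondrially encoded and 37 cytosolic ribosomal protein genes, with 0, 1, 0, 1, 2 and 0 genes at an unadjusted p under 0.05. Their median log2 fold changes ran from -0.25 for the ribosomal proteins to 0.08 for the respiratory chain. By gene class, 297 protein-coding genes were higher and 124 lower (3.62% called), and of 999 long non-coding RNAs 18 were higher and 5 lower (2.30%).

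The second comparison asked whether venetoclax acted differently in FOXM1-KD than in control cells, with an interaction term over 8 libraries. By this test 178 members (1.31%) differed by 2-fold or more, 113 with a higher (0.829%) and 65 with a lower effect in FOXM1-KD cells (0.477%), and DESeq2 called 59. When low-count genes were removed before fitting, edgeR called 0, with 559 at an unadjusted p under 0.05 and prior degrees of freedom of 5.61 in place of infinite. The control venetoclax libraries also stood apart from each other, and without control venetoclax library 1 edgeR called 0 (741 at an unadjusted p under 0.05). ANXA1 had 184 and 158 CPM in control cells with DMSO and 103 and 158 with venetoclax, against 5.73 and 7.18 and then 149 and 44.1 CPM in FOXM1-KD cells (difference of log2 fold changes 4.29 ± 0.43 SE, adjusted p = 1.6e-19, and 0.454 after the filter). CD38 had 237 and 187 CPM in control cells with DMSO and 28.5 and 182 with venetoclax, so its difference of 3.92 ± 0.46 combined a rise in FOXM1-KD cells with a low value in control library 1. TMEM52B, ADM, ETS1 and LGALS12 also had higher effects, from 3.48 to 3.78. BBC3 had 5.63 and 5.89 CPM in control cells with DMSO and 18.5 and 3.46 with venetoclax, so that the difference of -2.71 ± 0.60 (adjusted p = 0.0027) fell to -1.06 without control library 1 and was not called by DESeq2 (adjusted p = 0.247). MFAP4, P2RX7, AHNAK, ACSM3 and SARM1 had lower effects, from -3.41 to -2.60.

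Among the lists, the interaction called 7 of 18 ER genes with a higher effect in FOXM1-KD cells, 7 of 12 MHC class II genes with a lower effect and 5 of 13 primary granule genes with a higher one, against 0 in each when low-count genes were removed first. HSPA5 had 198 and 182 CPM in control cells with DMSO and 202 and 230 with venetoclax (difference 1.45 ± 0.38 SE, adjusted p = 0.025), and HLA-DRA had 869 and 806 and then 1055 and 811 (difference -2.06 ± 0.37, adjusted p = 4.2e-05). In both genes the control groups lay close together. ELANE had 0 counts in both control DMSO libraries and 3 and 0 counts after venetoclax, so no effect in control cells could be measured for it, and fitted differences of granule genes this low in control cells depend on the prior count. BCL2 had 134 and 138 CPM in control cells with DMSO and 130 and 149 with venetoclax, and the difference of -0.74 ± 0.38 was not called (adjusted p = 1).

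**Figure D5:**
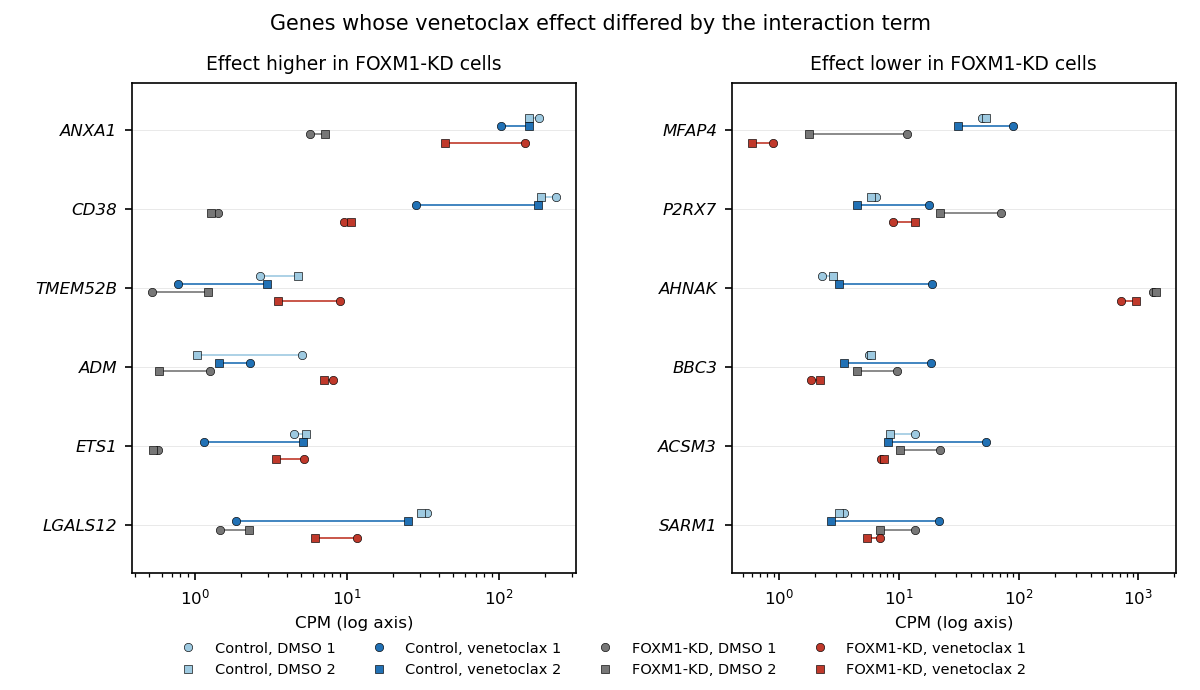
CPM by library (log axis) of the 6 genes with the highest and the 6 with the lowest difference of venetoclax effects between FOXM1-KD and control cells, for the 4 groups of 2 libraries each (circles library 1, squares library 2, a line joining the libraries of a group). The 2 control venetoclax libraries are far apart for CD38, LGALS12, AHNAK, BBC3, ACSM3 and SARM1.

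Venetoclax was also set against AraC (cytarabine), a nucleoside that stops DNA synthesis, given to FOXM1-KD cells at 0.75 μM for 48 h. The FOXM1-KD venetoclax libraries are the same as above, so the 2 comparisons are not independent. Here 2088 members (15.3%) were called, 674 higher with venetoclax (4.94%) and 1414 lower (10.4%). At any fold 3197 were called (23.5%), 10.2% of members higher and 13.3% lower, and 7024 with the replicate number as a block. With total counts in place of TMM, 16.2% in place of 32.3% of the calls were higher and the median log2 difference over members moved from 0.06 to -0.15. CDKN1A, the p53 target p21, had 64.1 and 43.1 CPM with AraC and 2.89 and 1.62 CPM with venetoclax (log2 difference -4.58 ± 0.39 SE, adjusted p = 4.9e-29). The integrin ITGB7, the chemokine CCL3 and the integrin ITGAX had log2 differences of -4.92, -4.79 and -4.47, with PPP1R16B and CSPG4 at -4.54 and -4.22. ELANE had 131 and 92.9 CPM with AraC and 1672 and 804 CPM with venetoclax (3.47 ± 0.26), and WNT7B, RNASE3, AFF2, DEFB1 and DACH1 were higher by 3.36 to 3.70 on the log2 scale. All 12 of these genes lay apart between the groups in both libraries.

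By list, 11 of 13 primary granule genes were higher with venetoclax than with AraC and 0 lower, 9 of 18 ER genes and 8 of 15 heat shock genes were higher and 0 lower, and 15 of 23 ATF4 response, 9 of 12 MHC class II, 14 of 24 interferon-stimulated and 13 of 20 NF-κB genes were lower and 0 higher. HLA-DRA had 209 and 206 CPM with AraC and 24.4 and 51.6 with venetoclax (log2 difference -2.45 ± 0.30 SE), HSPA5 239 and 250 and then 778 and 654 (1.55 ± 0.25), and ASNS 98.8 and 111 and then 24.6 and 52.1 (-1.45 ± 0.30), all called. BBC3 had 14.2 and 11.2 CPM with AraC and 1.90 and 2.31 with venetoclax (-2.59 ± 0.39). ANXA1, among the genes that rose most against DMSO, had 87.4 and 108 CPM with AraC and 153 and 46.2 with venetoclax and was not called (0.03 ± 0.29), and BCL2 had 197 and 231 and then 266 and 212 (0.16 ± 0.26).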

How the data were processed

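The series holds RNA-seq of 16 KG-1 libraries, of which the FOXM1-KD and control groups with DMSO or venetoclax and the FOXM1-KD group with AraC are used. The values are raw counts that the authors deposited without normalization, after alignment to hg38 by STAR and assignment to Ensembl genes by featureCounts. They sum to 15231704 to 19733745 per library in the main comparison. Tool versions, the strand setting of the counting and any use of the kit's molecular identifiers are not given in the sources used here, and the labels name a different kit from the paper, so antisense and overlapping genes are uncertain. With 2 libraries a group, p-values rest on the spread between them, which the main edgeR fits pooled over genes. The SE given with each change comes from the same test and so rests on that pooled spread too.

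The quasi-likelihood test of edgeR 4.0.16 (R 4.3.3) was run with TMM factors over the 23717 genes with a count in the 4 libraries, a prior count of 0.125 and Benjamini-Hochberg adjustment, and calls needed an adjusted p below 0.1 and a 2-fold change. Its prior degrees of freedom came out infinite, so each gene's own spread had no weight. Fits of the members alone, with robust empirical Bayes (chosen after seeing the data) and with DESeq2 1.42.0 are therefore given beside it. The scripts were tested on simulated data. The other alternatives were DESeq2's size factors, total counts, filterByExpr, an adjusted p below 0.05, all 16 or the 6 FOXM1-KD libraries in one fit, a prior count of 2, the replicate block and leaving out each library.

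The members and gene lists were chosen with earlier results of these data known. Named genes were FOXM1, the BCL2 family lists, the 15 highest and lowest called protein-coding genes with 10 or more counts in each library (6 for the other comparisons), up to 4 genes of the smallest adjusted p per list and genes of the study's text. Others named to describe a list were chosen after their values were seen. Genes that passed the count minimum only through a single group, such as HMOX1, CCL2 and BCL2A1, had their direction fixed by that rule. A few list members that this rule could name are not reported here.

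Replicate numbers paired the libraries of numbered groups: deviations from group means correlated at 0.303 to 0.473 across 14942 genes in 10 pairs of groups. Annotation was GENCODE release 44 (GRCh38), which held 13533 members, and promoters came from RefSeq (GRCh38.p14). Plots were drawn with matplotlib 3.10.9.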

Additional observations from a re-analysis of the deposited data

Results flagged for a closer look

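The venetoclax effect differed between FOXM1-KD and control cells, by the interaction term of edgeR over 8 libraries, for the 12 genes named in that comparison. The effect was higher in FOXM1-KD cells by 4.29 on the log2 scale for ANXA1, 3.92 for CD38, 3.78 for TMEM52B, 3.74 for ADM, 3.59 for ETS1 and 3.48 for LGALS12. It was lower by -3.41 for MFAP4, -2.90 for P2RX7, -2.80 for AHNAK, -2.71 for BBC3, -2.60 for ACSM3 and -2.60 for SARM1. AHNAK, a large scaffold protein, had 1333 and 1398 CPM in FOXM1-KD cells with DMSO and 713 and 964 with venetoclax, against 2.28 and 2.81 and then 18.9 and 3.17 CPM in control cells, where control venetoclax library 1 lay far above library 2. None of the 12 was called when low-count genes were removed before fitting, where the smallest adjusted p among them was 0.454, for ANXA1. None was called without control venetoclax library 1.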

How the results depend on the processing

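For venetoclax against DMSO, 464 genes were called, and DESeq2 called 287. At any fold, 473 were called, and 302 by DESeq2. Leaving out 1 library gave 0 to 224 by either rule, with 0 without either venetoclax library. The other alternatives gave 389 to 562 at 2-fold. For the difference of effects 178 were called at 2-fold and at any fold. DESeq2 gave 59, and filterByExpr and the minimum of 10 mean counts gave 0 each, with 579 and 559 genes at an unadjusted p under 0.05. Leaving out 1 library gave 0 to 178: 0 without control or FOXM1-KD venetoclax library 1, 1 without FOXM1-KD venetoclax library 2, 36 without control venetoclax library 2, and 64 and 46 without control DMSO libraries 1 and 2. For venetoclax against AraC 2088 were called, and 935 to 2402 with 1 library left out, the lowest without AraC library 1 and 1052 without AraC library 2. At any fold these were 3197 and 935 to 2755. With the replicate block 2141 genes were called at 2-fold and 7024 at any fold, and the block changed the call of none of the 12 genes named there. No paired analysis was possible because the DMSO libraries carry no replicate number, for the comparisons that use them. Where a fit left 1 library in a group, that library was assumed to vary like the others.

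Among 113 genes named against DMSO 105 were called, and all 105 lost their call without venetoclax library 1 and without library 2, as did 50 without DMSO library 1 and 28 without DMSO library 2, against 15 with DESeq2. The sign changed for 3 genes. With a DMSO or venetoclax library left out, VEGFA ran from -2.08 to 0.17 and TCP11L2 from -2.96 to 0.13, with the highest values without DMSO library 1, and FOXM1 from -0.60 to 0.15, with the highest value without DMSO library 2. BMF gained a call with all 16 libraries (adjusted p = 0.053), and BMF and BIK with the 6 FOXM1-KD libraries. The 12 genes named against AraC kept their call and direction in every alternative run. Genes with few counts, such as HMOX1 and TCN1 with DMSO, are limited by depth.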
